A study of Ovis aries with 16 samples.

Results

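The 101 most abundant transcripts of control amnion are described here, in control fetal sheep and in animals whose amniotic fluid volume had been manipulated. They are the gene IDs with a mean of at least 1000 CPM (a gene's reads per 1000000 reads of its library) over the 4 control libraries. The selection left out the first 37 IDs of the numbering, so 101 of 25160 IDs were taken, out of 25197 in the table. Amnion was taken from 16 late gestation sheep with singleton fetuses, fitted with catheters at 121 ± 0.5 days of gestation (SE, term at 145 to 150 days), including catheters in the amniotic fluid and the fetal bladder. The protocols lasted 2 days, with 4 animals and 4 libraries in each group. The controls (C) carried the catheters too, and the labels name no other intervention for them. Urine drainage alone, with nothing given back, defines the UD animals. The UDR animals lost urine and received lactated Ringer's, a balanced salt solution, in isovolumic amounts. The IA animals, numbered S1 to S4 in the labels and IA 1 to IA 4 here, received the same solution as a continuous infusion of 2 liters a day into the sac. The labels name no strain or genotype, and the tissue could not be checked against marker genes, because 0 of the 25197 Ensembl sheep IDs matched a gene of the reference table and the counts table carries no gene names. The members are therefore given by ID, with no function and no sequence.

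The amnion is the inner fetal membrane. A single layer of epithelial cells faces the fluid and rests on a collagen-rich stroma with scattered fibroblasts, without vessels of its own, and fluid and solutes cross it on their way from the amniotic sac to the fetal circulation. In most tissues a small set of transcripts, often those of structural, secreted and translation proteins, takes a large part of all messenger RNA, so what happens to this set shapes every measure given as a share of the library. A read count grows with the length of the transcript as well as with the number of molecules. The ranks below are ranks by reads, and they do not order the IDs by molecules. Within bulk tissue, fewer cells of a type and less RNA per cell cannot be told apart.

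The libraries held 12245460 to 30767263 counts. Of these, 4 libraries stood apart in the shares that parts of the list took, namely UD 1, UD 4, UDR 3 and IA 2. Results that rest on them are given with each library's own value. C 1, UD 2 and UDR 2 also departed from other libraries in part of the members, as given below. By the column names, lane 1 carried the controls with UD 1 and UD 2. Lane 2 carried UD 3, UD 4 and all of UDR, and lane 3 carried IA with second runs of UDR 2 and UDR 3, so that IA shared no lane with C or UD. All 101 members were among the 14148 genes kept for testing.

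In the controls the members took 24.5% ± 1.62 of all counts (SD, n = 4), at 22.6%, 26.5%, 24.1% and 24.9% in C 1 to C 4. The C values chose the members, so they are a description. The 8 members with a mean of 5000 CPM or more held 28.0% of the members' counts, the 31 between 2000 and 5000 CPM held 37.3%, and the 62 between 1000 and 2000 CPM held 34.7%. The list had no natural end. Just inside the limit lay ENSOARG00000011925 at 1021 ± 208 CPM, ENSOARG00000007328 at 1013 ± 490.4 and ENSOARG00000002307 at 1005 ± 578 (SD, n = 4). Just outside lay ENSOARG00000000374 at 992 ± 499, ENSOARG00000008306 at 991 ± 171 and ENSOARG00000016992 at 988 ± 124 CPM. These 6 means differed by less than the spread between the control animals.

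Abundant did not mean steady, even among controls. The coefficient of variation of a member over the 4 control animals had a median of 30.5%, from 6.001% to 160.1%, and in 51 of the 101 members the highest control was more than 2-fold above the lowest. C 1 differed most from the other controls. It held the lowest control value of 56 members and the highest of 28. Over the members its Spearman correlation with another control was at most 0.495, while C 2, C 3 and C 4 correlated with each other at 0.746 to 0.776. These correlations run across the 101 members, which share their libraries. Only 72 members reached 1000 CPM in C 1, against 92 in C 2, 86 in C 3 and 89 in C 4, and 55 members reached it in every control. The 37 IDs left out by the rule also took their largest share in C 1, 2.13%, against 0.607% to 0.907% in the other controls. With these IDs taken off the totals, the members' mean share in C was 24.8% and 103 IDs met the limit. That step scales all members of a library alike and leaves their order within it unchanged. Any other part of these IDs in the differences of C 1 was not tested.

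ENSOARG00000016786 led the list, with 9630.4, 18209, 11621 and 14467 CPM in C 1 to C 4, a mean of 13482 ± 3724 CPM (SD, n = 4). It was the first transcript by reads in C 2 and C 3 and the second in C 4. In UD it was at 3211, 10914, 15129.9 and 7877 CPM, in UDR at 26614, 22797, 5074 and 10928 and in IA at 17859, 64.9, 18974 and 14783. By group mean it ranked 1 in C, 1 in UDR, 6 in UD and 4 in IA, and in IA 2 it stood at rank 2412, at 0.481% of the control mean. Without IA 2 its IA mean was 17205 CPM, at rank 1.

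ENSOARG00000006096, the third of the list, had a profile of the same kind. Its control values were 13062, 10811, 8779 and 8215 CPM, its UDR values 21296, 22997, 1834 and 12959, its UD values 2074, 6063, 17674 and 4863 and its IA values 12689.9, 27.9, 15095 and 11016. UDR 1 and UDR 2 lay above all controls for both IDs, while UD 1, UD 4, UDR 3 and IA 2 lay below all controls. The second of the list, ENSOARG00000014988, was at 7960.2, 11029.9, 10182 and 17268 CPM in C and at 12305, 1315, 9392 and 11017 in IA, with IA 2 again lowest but at 11.3% of the control mean rather than under 1%.

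ENSOARG00000020821 was the steadiest of the 10 highest members in C, at 7841, 7583, 7949 and 5981 CPM, a mean of 7339 ± 918 (SD, n = 4). Its UD values were 2477, 6019, 6973 and 3645, its UDR values 7694, 7992, 5486 and 5622 and its IA values 6851, 2225, 8630.4 and 6264. The groups overlapped. ENSOARG00000005941 lay at 3068, 5760.4, 6446 and 9719 CPM in C and was low in UDR 3, at 486, and in IA 2, at 1147.

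ENSOARG00000017272 ranked 6 by its control mean but is poorly described by it. It was at 254 CPM in C 1 and at 11623, 7059.8 and 7533 in the other controls. It was equally uneven in UD, at 3017, 193, 9429.8 and 5885, in UDR, at 10916, 1032, 146 and 6386, and in IA, at 12175, 12.3, 16012 and 7395. C 1, UD 2, UDR 2, UDR 3 and IA 2 were low, and every other library was at 3017 CPM or more. Its SD over all 16 libraries was 3.01 in log2 CPM.

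ENSOARG00000019329, the fifth in C at 6642 ± 3069 CPM (SD, n = 4), was at 27102, 35111, 5909 and 13969 CPM in UD 1 to UD 4. Of these 4 values, 3 lay above the highest control, C 1 at 11196 CPM, while UD 3 lay among the controls. In UDR it was at 9880.4, 11870.4, 4055 and 9758 and in IA at 8207, 10225, 4345 and 5843. ENSOARG00000016476, ENSOARG00000004871 and ENSOARG00000001508, also among the 10 highest, are described with the set they belong to.

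**Figure D1:**
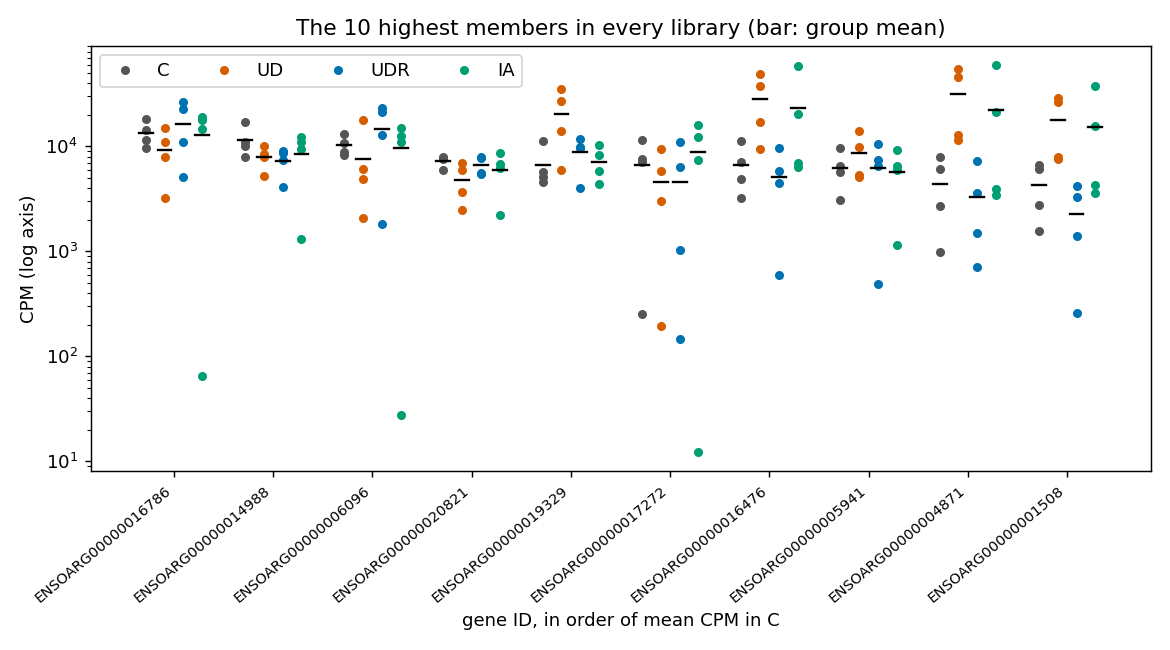
CPM on a log axis of the 10 members with the highest mean in C; each point is 1 library, coloured by group, and the bar is the group mean. The lowest points of ENSOARG00000016786, ENSOARG00000006096 and ENSOARG00000017272 are those of IA 2, at 64.9, 27.9 and 12.3 CPM, and ENSOARG00000004871 reaches 59380 CPM in the same library.

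The members as a set kept a large share of the reads after treatment. They took 31.9%, 27.0%, 28.9% and 31.7% of the counts in UD 1 to UD 4, a mean of 29.9% ± 2.34 (SD, n = 4), all above the highest control of 26.5%. In IA they took 27.2%, 30.5%, 28.6% and 27.9%, a mean of 28.6% ± 1.43, again all above the controls. In UDR they took 30.1%, 26.6%, 15.04% and 23.5%, a mean of 23.8% ± 6.45, or 26.8% ± 3.31 (SD, n = 3) without UDR 3. UDR 3 held the lowest share of the 16 libraries. These shares are given without a test, since they are sums over a chosen list.

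The sum hid a change of make-up. A set of 7 members, ENSOARG00000016476, ENSOARG00000004871, ENSOARG00000001508, ENSOARG00000009032, ENSOARG00000011328, ENSOARG00000012880 and ENSOARG00000016440, were at least 2-fold above their highest control in each of UD 1, UD 4 and IA 2, a rule set after the values were seen. They are 6.93% of the list, and 4.97% of all genes tested met the same rule. Together they took 17.0% of the counts of UD 1, 13.6% of those of UD 4, 19.9% of those of IA 2 and 7.03% of those of IA 4, against 3.37%, 2.70%, 0.997% and 1.58% in the controls. The other 94 members took 19.2%, 23.7%, 23.1% and 23.3% in C 1 to C 4, a mean of 22.3% ± 2.13 (SD, n = 4). In UD 1, UD 4 and IA 2 they fell below every control, at 14.8%, 18.1% and 10.6%, with UD 4 close to C 1. In UD 2 and UD 3 they took 22.7% and 24.8%, and in IA 1, IA 3 and IA 4 25.2%, 26.4% and 20.8%. In UDR 3 both parts were low, at 0.333% for the 7 members and 14.7% for the others.

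**Figure D2:**
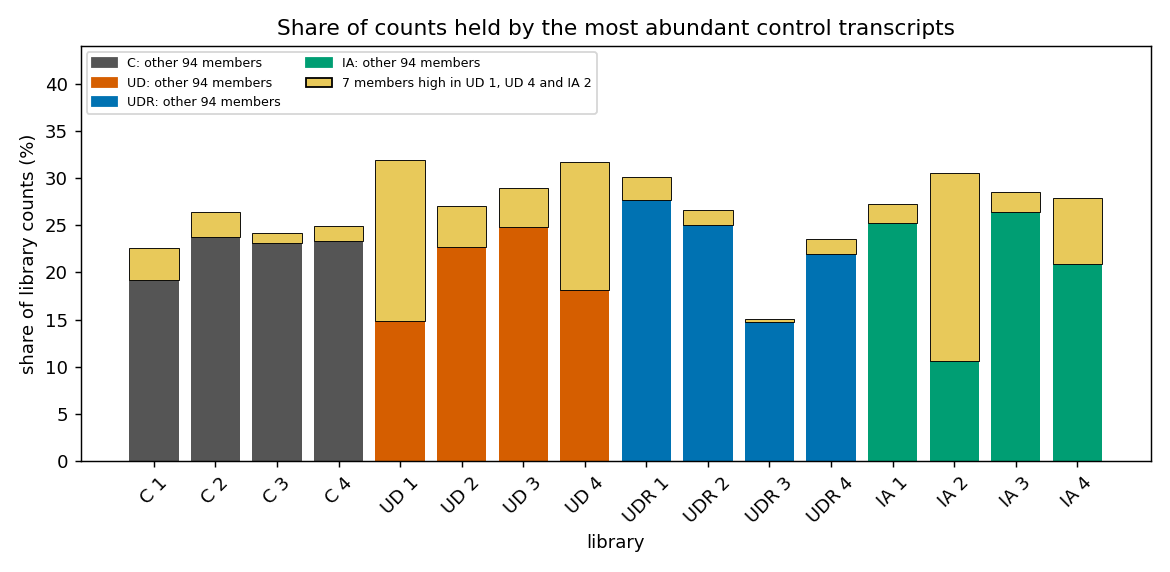
Share of each library's counts, in percent, taken by the members; the lower part of a bar is the 94 other members, coloured by group, and the yellow part is the 7 members high in UD 1, UD 4 and IA 2. The yellow part reaches 19.9% in IA 2 and 17.0% in UD 1, and the whole bar is lowest in UDR 3, at 15.04%.

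The largest of the 7 was ENSOARG00000004871. It was at 7881, 6099, 992 and 2684 CPM in C 1 to C 4, so the controls were themselves far apart. Values of 55247, 11562, 12737 and 46163 CPM were found in UD, 7309, 1497, 705 and 3614 in UDR and 3895, 59380, 3423 and 21382 in IA. It was the first transcript by reads in UD 1, UD 4, IA 2 and IA 4, where it took up to 5.94% of a library. For ENSOARG00000016476 the controls held 11205, 7047, 3206 and 4893 CPM, the UD libraries 49204, 17072, 9373 and 37333, the UDR libraries 5834, 9727, 590.2 and 4513 and the IA libraries 6345, 58705, 6945 and 20414. For ENSOARG00000001508 the controls held 6683, 6139, 1552 and 2766 CPM, the UD libraries 28922, 7618, 7877 and 26786, the UDR libraries 4172, 1395, 261 and 3283 and the IA libraries 4251, 37990.2, 3564 and 15682. UD 1, UD 4, IA 2 and IA 4 held the 4 highest values of all 3 IDs, and UDR 3 held the lowest value of each among the 16.

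The other 4 of the set had UD 1, UD 4 and IA 2 as their 3 highest libraries as well. ENSOARG00000009032 ranged over 384 to 27265 CPM, with its lowest value in UDR 3 and its highest in IA 2. For ENSOARG00000016440 the controls held 695, 1373, 790.3 and 1354 CPM, the UD libraries 5682, 773, 999 and 3856, the UDR libraries 585, 180.1, 183 and 888 and the IA libraries 782, 4425, 1247 and 1735. ENSOARG00000012880 reached 4928 CPM in UD 1 and ENSOARG00000011328 7843 in IA 2, from control means of 1250.4 ± 397 and 1503 ± 197 (SD, n = 4).

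IA 2 held next to nothing of a large part of the list. In this library 26 members lay under 5% of their control mean, a limit set after the values were seen, and 14 of them were under 10 CPM. The 26 are 25.7% of the list, beside 4.77% of all genes tested. Those 26 IDs took 6.70% ± 1.36 of the counts in C (SD, n = 4), 8.14%, 9.24% and 6.69% in the other IA libraries, and 0.0592% in IA 2. In UD 1 to UD 4 they took 2.16%, 3.64%, 8.25% and 4.45%, and in UDR 1 to UDR 4 9.56%, 7.93%, 2.16% and 6.32%. They included 3 of the 10 highest members, ENSOARG00000016786, ENSOARG00000006096 and ENSOARG00000017272, which IA 2 held at 64.9, 27.9 and 12.3 CPM. The lowest was ENSOARG00000005973, at 1.07 CPM (18 counts) against a control mean of 1096 ± 496 CPM. ENSOARG00000005880 and ENSOARG00000016974 followed at 1.13 and 1.37 CPM, against 1425 ± 257 and 1427 ± 788 in C. The total of IA 2, 16777223 counts, lay within the range of the other libraries.

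UDR 3 was low in more members than IA 2, but it held 1 member under 10 CPM, against 14 in IA 2. The median member lay at -1.03 in scaled log2 CPM relative to the control mean in UDR 3, and at -0.75 in IA 2. More than 2-fold below the control mean in scaled log2 CPM were 51 members in UDR 3, 50.5% of the list against 17.1% of all genes tested. The number was 46 in IA 2 (45.5% against 16.9%), 26 in UD 1 (25.7% against 11.6%), 25 in UD 2 (24.8% against 9.56%) and 14 in UDR 2 (13.9% against 14.2%). In UD 3, UD 4, UDR 1, UDR 4, IA 1, IA 3 and IA 4 it was 0 to 4 members, where 3.38% to 14.3% of all genes were as low. Among the controls it was 15 in C 1 (14.9% against 5.73%) and 0 to 5 in the others. In the other direction, 18 members were more than 2-fold above the control mean in UDR 1 (17.8% against 6.13% of all genes), 17 in UDR 2 (16.8% against 9.81%), 14 in IA 2 (13.9% against 20.2%) and 11 each in UD 1 (10.9% against 19.1%) and UD 4 (against 15.1%). The remaining libraries had 1 to 10. The members were chosen for high values in C, so these counts against C are a description.

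Of the 51 members low in UDR 3, 28 were also low in IA 2, or 54.9%, where 45.5% of the whole list was low in IA 2. They made up 60.9% of the 46 low in IA 2. Of the 26 low in UD 1, 23 were also low in IA 2 and 16 in UDR 3, but 2 in UDR 2. Of the 25 low in UD 2, 22 were also low in UDR 3, 18 in IA 2 and 10 in UDR 2. Over the 101 members and 16 libraries, principal component 1 held 63.5% of the variance and set IA 2 apart, and component 2 held 18.0% and set UDR 3 apart from UD 1, UD 4 and IA 2.

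**Figure D3:**
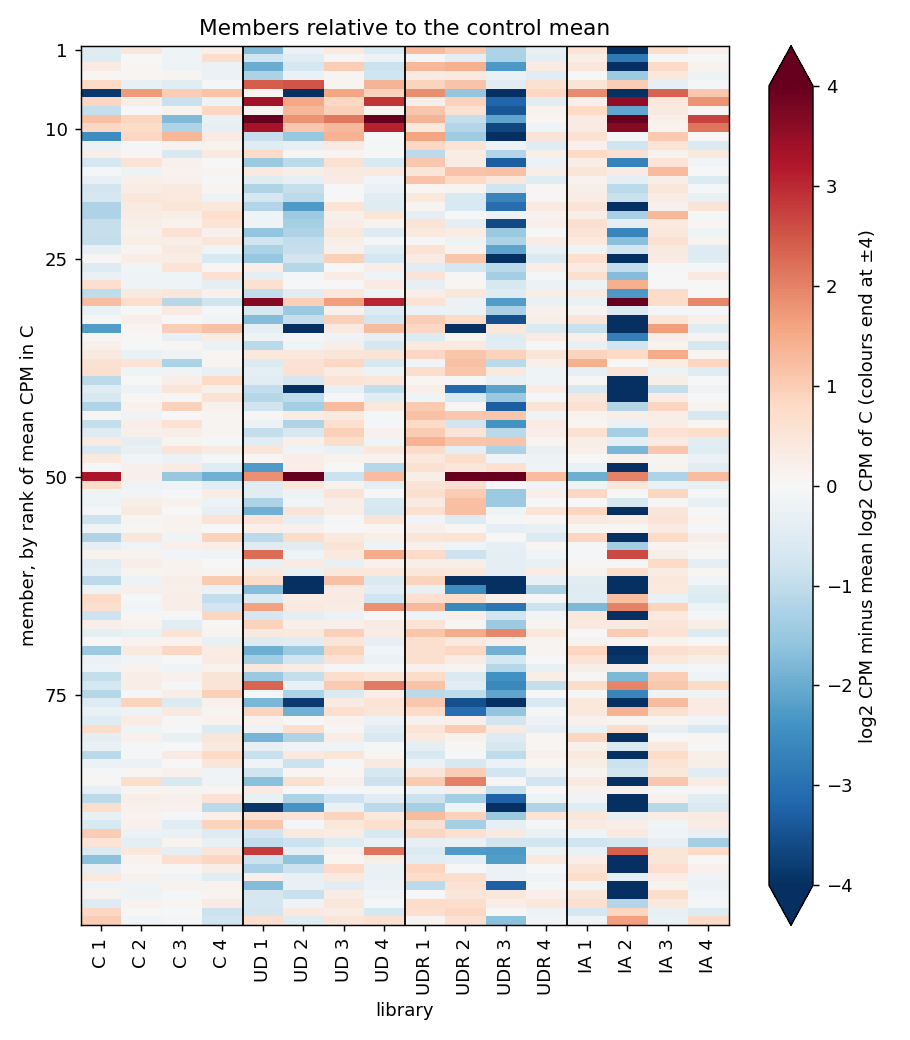
Scaled log2 CPM of each member (rows, in order of mean CPM in C) minus its mean over C, in each library (columns, in groups separated by lines); red is above and blue below the control mean. IA 2 and UDR 3 show the most blue rows, with 46 and 51 members more than 2-fold below, and the dark red rows near ranks 7 to 10 in UD 1, UD 4 and IA 2 are ENSOARG00000016476, ENSOARG00000004871 and ENSOARG00000001508.

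A second pattern crossed the groups. ENSOARG00000002590 was at 5669.7, 670.4, 201 and 144 CPM in C 1 to C 4, so that its place in the list rested on C 1. The UD libraries held 1679, 32242, 282 and 1169 CPM, the UDR libraries 573, 8606, 32889 and 1396 and the IA libraries 138, 1905, 216 and 1339.7. C 1, UD 2, UDR 2 and UDR 3 lay above all 12 other libraries, as they did for 2.56% of all genes tested, and it was the first transcript by reads in UDR 3. A further 3 members, ENSOARG00000000641, ENSOARG00000007785 and ENSOARG00000020413, were lowest in those same 4 libraries, or 2.97% of the list against 0.707% of all genes tested. For ENSOARG00000000641, for example, the controls held 528, 5171, 7290.5 and 3422 CPM, the UD libraries 1228, 979, 6698 and 2485, the UDR libraries 7269, 913, 160.3 and 4205 and the IA libraries 3969, 2302, 5234 and 2837. The 4 libraries, picked after the values were seen, are 1 library of C, 1 of UD, 2 of UDR and 0 of IA.

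A smaller part of the list was steady. A total of 17 members stayed at 1000 CPM or more in all 16 libraries, and 23 members (22.8%) had an SD under 0.5 in log2 CPM over the 16 libraries, against 41.5% of all genes tested. An SD over 1 was found for 43 members (42.6%), against 25.2% of all genes. ENSOARG00000003903 varied least. The controls held 1417, 1595, 1699.6 and 1463 CPM, the UD libraries 1443, 1709.6, 1347 and 1414, the UDR libraries 1499.8, 1380.3, 1101 and 1307 and the IA libraries 1499, 1326, 1699.8 and 1425. Its SD over the 16 libraries was 0.17 in log2 CPM, and IA 2 and UDR 3 stayed close to the other libraries. ENSOARG00000011109 was next, with an SD of 0.26 and a range of 1418 to 2393 CPM. At the other end stood ENSOARG00000016974, with an SD of 3.40 and values from 1.37 CPM in IA 2 to 2509 in UD 3, and then ENSOARG00000017272.

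Within a group the members spread more than a typical gene where a library stood apart. The controls had a median member SD of 0.44 in log2 CPM, beside 0.42 over all genes tested. The same pair was 0.61 and 0.56 in UD, 0.70 and 0.59 in UDR, and 0.90 and 0.48 in IA. Without IA 2 the pair in IA was 0.31 and 0.29, both the lowest of the groups. Without UDR 3 the pair in UDR was 0.47 and 0.48, so in both cases the members were close to all genes. Between the 2 runs of UDR 2 the members differed by a median of 0.01 in log2 CPM, and between those of UDR 3 by 0.02. The smallest count of any member in a control library was 2446, where the Poisson counting error is 2.02%.

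A list drawn up in another group by the same rule shared most of its IDs with that of C. In UD, 92 IDs had a mean of 1000 CPM or more, of which 78 were members (77.2% of the members and 84.8% of the UD list). The UDR list shared 81 of 110 (80.2% and 73.6%) and the IA list 86 of 95 (85.1% and 90.5%). All 4 lists held 67 IDs. The highest ID outside the members was ENSOARG00000012810 in UD, at 3859.6 ± 3183 CPM against 554 ± 266 in C (SD, n = 4), with 7739 in UD 1 and 5187 in UD 4. In IA it was ENSOARG00000015727, at 2672 ± 3499.8 CPM, which was at 7871 in IA 2 and at 557 to 1624 in the other IA libraries. In UDR it was ENSOARG00000009963, which owed its mean of 3178 CPM to UDR 3 alone. It was at 12675 CPM there and at 3.76 to 20.6 in the other UDR libraries.

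The number of members at 1000 CPM or more differed within the groups. It was 56, 67, 89 and 74 in UD, 85, 78, 42 and 84 in UDR and 84, 52, 89 and 86 in IA.

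UDR and UD differ in whether the drained volume was replaced with lactated Ringer's solution. Their comparison does not use the control values that chose the members. The 7 members high in UD 1, UD 4 and IA 2 all had negative log2 fold changes, with a median of -2.76, and none passed the test by edgeR. The set was picked partly on UD 1 and UD 4, so its direction here is no independent result. ENSOARG00000001508 was at 28922, 7618, 7877 and 26786 CPM in UD and 4172, 1395, 261 and 3283 in UDR. Every UDR value lay below every UD value. Its log2 fold change, -3.05 (SE 0.96), had an adjusted p by edgeR of 0.487. ENSOARG00000016440 overlapped between the groups, since UD 2 lay below UDR 4. Its log2 fold change, -2.76 (SE 0.78), had an adjusted p by edgeR of 0.487. In lane 2, with UD 3 and UD 4 but without UD 1 and UD 2, the log2 fold changes were -3.01 and -2.52.

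In the other direction, 3 members were highest in UDR 1, UDR 2 and UDR 3 of all the libraries of UD, UDR and IA, namely ENSOARG00000004143, ENSOARG00000009538 and ENSOARG00000009602, picked after their values were seen. The share of all genes tested with this pattern was not determined, so the number is not a trait of the list. ENSOARG00000004143 was at 4019.6, 3351, 3549 and 1976 CPM in UDR, against 1076, 2027, 2577 and 1383 in UD and 2022, 1191, 1989 and 1339 in IA. UDR 4 lay among the other groups. Its log2 fold change was 0.88 (SE 0.34) in UDR against UD and -1.01 (SE 0.34) in IA against UDR. For ENSOARG00000009538 these values were 0.72 (SE 0.31) and -0.84 (SE 0.31), and for ENSOARG00000009602 0.80 (SE 0.39) and -0.95 (SE 0.39), and edgeR called none of them. UDR 3, which was low in 51 members, was high in these 3 by the choice. Their directions in both comparisons are therefore no independent result.

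Over the list, edgeR called 0 of 101 members between UDR and UD, as it called 0% of all genes. An unadjusted p under 0.05 was found for 9 members (8.91%), 2 higher and 7 lower in UDR, against 8.88% of all genes, which is about the same share. DESeq2 called 4 members, ENSOARG00000004871, ENSOARG00000001508, ENSOARG00000009032 and ENSOARG00000016440, where it called 1.11% of all genes, and all 4 were lower in UDR. Limma-voom with sample quality weights called 8 members against 11.6% of all genes. Without UD 1 or without UD 4 it called 0 members and 0 of all genes. The median member log2 fold change was 0.11, beside 0.04 over all genes, with 55 members higher and 46 lower. It was -0.04 without UD 1 and 0.33 without UDR 3. Within the shared lane it was -0.15, with 0 members called. Members whose scaled CPM did not overlap between the groups numbered 3, all lower in UDR, or 2.97% of the list against 2.47% of all genes. They were ENSOARG00000004871, ENSOARG00000001508 and ENSOARG00000009032. A log2 fold change below -1 was found for 9 members against 11.1% of all genes, and above 1 for 1, ENSOARG00000016773, against 4%.

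Between IA, where volume was added, and UD, where it was removed, the 7 members had a median log2 fold change of -0.31, and each group held high and low libraries of them. ENSOARG00000019329 had the smallest p of the list. It was at 27102, 35111, 5909 and 13969 CPM in UD and 8207, 10225, 4345 and 5843 in IA, and UD 3 lay within the IA values. The log2 fold change, -1.52 (SE 0.55), had an adjusted p by edgeR of 1. edgeR called 0 members and 0% of all genes, and 1 member had an unadjusted p under 0.05, or 0.990% against 0.82%. Scaled CPM did not overlap for 0 members, against 0.488% of all genes. A log2 fold change above 1 was found for 0 members, against 1.52%, and below -1 for 2, against 4.4%, which were ENSOARG00000019329 and ENSOARG00000002590. For ENSOARG00000002590 the log2 fold change of -3.18 (SE 1.66) rested on UD 2, at 32242 CPM, and the other 3 UD libraries lay within the IA range of 138 to 1905 CPM. DESeq2 called 0 members against 0.0214% of all genes. Limma-voom with sample quality weights called 8 against 10.2%. Without UD 1 or without UD 4 it called 0 members and 0 of all genes. The median member log2 fold change was 0.12, with 67 members higher and 34 lower in IA, beside 0.00 over all genes. It was 0.31 without IA 2 and -0.01 without IA 3. No lane holds both groups, and a fit of all 16 libraries with lane as a term gave 0.31.

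IA was compared with UDR, both given lactated Ringer's solution. The 7 members all had positive log2 fold changes, with a median of 2.24. The set was picked partly on IA 2, so this direction too is no independent result. ENSOARG00000001508 was at 4251, 37990.2, 3564 and 15682 CPM in IA against 4172, 1395, 261 and 3283 in UDR. IA 3 lay below UDR 1, so the groups overlapped. Its log2 fold change, 2.80 (SE 0.95), had an adjusted p by edgeR of 0.505. Without IA 2 the log2 fold change was 1.72. ENSOARG00000016440 had a log2 fold change of 2.24 (SE 0.77) and the same adjusted p by edgeR, or 1.45 without IA 2. In lane 3, which holds UDR 2 and UDR 3 but not UDR 1 and UDR 4, they were 4.25 and 3.51. edgeR called 0 members and 0% of all genes. An unadjusted p under 0.05 was found for 8 members (7.92%), 5 higher and 3 lower in IA, against 9.07%. DESeq2 called 0 members against 0.378% of all genes, while limma-voom with quality weights called 0 members and 0% of all genes. Scaled CPM did not overlap for 1 member higher in IA, ENSOARG00000010243, and 1 lower, ENSOARG00000004399, or 1.98% of the list against 3.03% of all genes. A log2 fold change above 1 was found for 9 members, against 10.5%, and below -1 for 2, against 6.06%. The lowest was ENSOARG00000002590, at -3.59 (SE 1.70), where UDR 2 and UDR 3 lay above all IA libraries and UDR 1 and UDR 4 among them. The median member log2 fold change was 0.08, beside -0.03 over all genes, and -0.19 without UDR 3. It was 0.28 in lane 3.

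**Figure D4:**
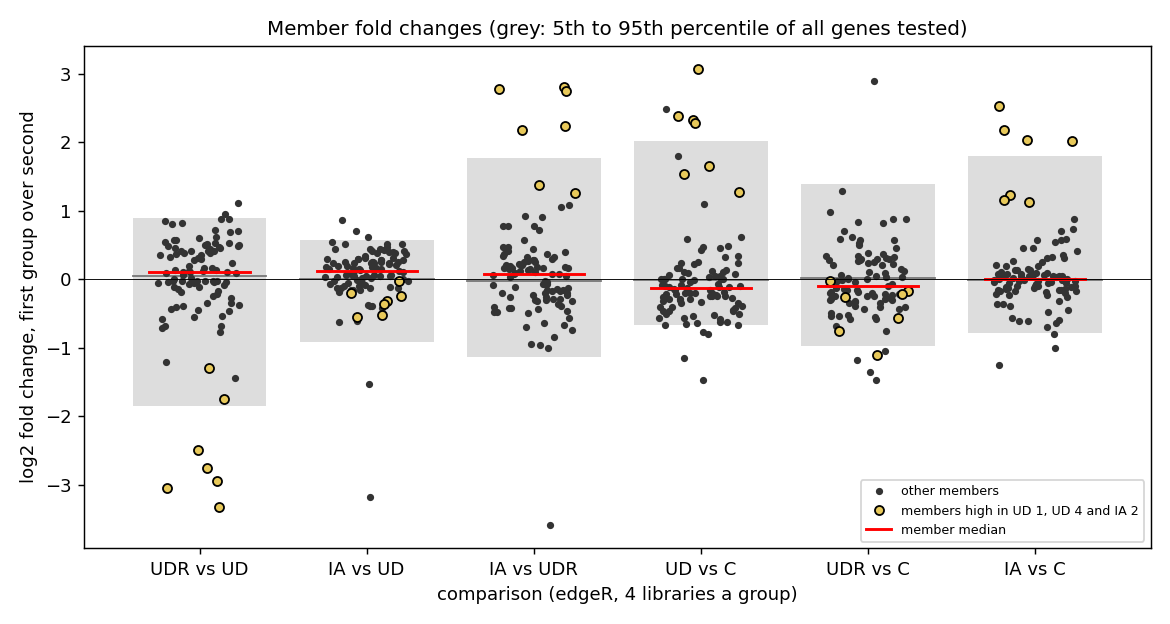
Log2 fold changes of the 101 members by edgeR in 6 comparisons of 4 libraries against 4; yellow points are the 7 members high in UD 1, UD 4 and IA 2, red lines are member medians, grey bands run from the 5th to the 95th percentile of all genes tested, and grey lines are their medians. The yellow points lie below 0 in UDR vs UD, with a median of -2.76, and above 0 in IA vs UDR, with a median of 2.24.

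The shifts against C are a description, because the C values chose the members, and the 3 comparisons share the C libraries. The median member log2 fold change was -0.13 in UD, with 40 members higher and 61 lower, -0.10 in UDR, with 43 higher and 58 lower, and 0.00 in IA, with 51 higher and 50 lower. Over all genes tested the medians were -0.01, 0.02 and -0.02. Without UDR 3 the median in UDR was 0.13, and without IA 2 that in IA was 0.17. In lane 1, where UD 1 and UD 2 stand with the controls, the median in UD was -0.43. For IDs chosen instead by their mean in the 12 libraries of UD, UDR and IA, the medians were 0.01, -0.02 and 0.05.

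A log2 fold change above 1 was found in UD for 10 members, against 11.8% of all genes, and below -1 for 2, against 1.98%. In UDR it was 2 above (7.54% of all genes) and 5 below (4.72%), and in IA 7 above (10.1%) and 1 below (3.06%). In IA the 7 above 1 were the 7 members high in UD 1, UD 4 and IA 2. That set was picked on these libraries against the controls, so its direction in UD and in IA is no independent result. In UD, ENSOARG00000004871 had the largest value, 3.07 (SE 1.07), and its 4 UD values lay above all 4 controls, as did those of ENSOARG00000001508, at 2.29 (SE 0.93). ENSOARG00000019329 was at 1.79 (SE 0.55). In UDR, ENSOARG00000018506 was at 3653, 3186, 4004 and 3735 CPM in C and 4346, 6913, 7417 and 4356 in UDR, and ENSOARG00000003021 at 2689, 1691, 1844 and 1987 in C and 3025, 3763, 3465 and 2892 in UDR. Both lay above all controls in every UDR library, UDR 3 included, by log2 fold changes of 0.81 (SE 0.32) and 0.83 (SE 0.30), and these 2 were picked after their values were seen. In scaled CPM their UD values lay above all controls as well. ENSOARG00000003021 also had the smallest p of the list in IA against C, with a log2 fold change of 0.88 (SE 0.30) and an adjusted p by edgeR of 1. edgeR called 0 genes of the whole table in each of the 3 comparisons, and an unadjusted p under 0.05 was found for 8 members in UD, 5 in UDR and 6 in IA, beside 5.46%, 6.1% and 4.4% of all genes. DESeq2 called 0 members in each, beside 0.104%, 0.221% and 0.0357% of all genes. Scaled CPM did not overlap with C for 5.94% of the members in UD, 3.96% in UDR and 1.98% in IA, beside 2.9%, 2.87% and 1.86% of all genes. Limma-voom with sample quality weights called 18 members in UD, where it called 23.8% of all genes. Without UD 1 or without UD 4 it called 0 members and 0 of all genes. In UDR and in IA it called 0 members and 0% of all genes.

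The SE of a member's log2 fold change had a median of 0.53 in UDR against UD, above the 0.41 of all genes tested. The approximate 95% interval lay wholly between -1 and 1 in log2 fold change for 20 of the 101 members in that comparison, for 34 between IA and UD, and for 20 between IA and UDR. For the other members the interval reached past a 2-fold difference in at least 1 direction.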

How the data were processed

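Per the labels, TruSeq libraries were made from the polyadenylated RNA of amnion with random priming and PCR, and were read on an Illumina HiSeq. The authors deposited counts of reads per gene, unscaled, in 18 columns. Per the submitters' processing notes, FastQC 0.11.3, HTSeq 0.6.1 and DESeq2 were used. The aligner, the genome build and whether strand was used: not given in the sources used here, so overlapping and near-identical genes are uncertain. The 2 runs of UDR 2 and of UDR 3 were summed. CPM was taken over the library total, without further scaling. Tests used edgeR 4.0.16 in R 4.3.3: filterByExpr, TMM factors (0.882 to 1.12), robust quasi-likelihood F test, two-sided, group as the only term, all 16 libraries in 1 fit. P-values were adjusted by Benjamini-Hochberg over all 14148 genes, threshold 0.05. Scaled log2 CPM used a prior count of 2. Nothing says more of the replicates than that each is a separate animal's library, so animal and preparation cannot be told apart. Alternatives were RLE scaling, no filter, DESeq2 1.42.0, limma-voom (limma 3.58.1) with sample quality weights, a replicate block, lane fits and each library left out. The methods were tested on simulated data. The members and lists were chosen with earlier results of these data known. IDs named are the 10 highest members, 3 on each side of the limit, the 2 most and 2 least variable, the smallest p in each direction among UD, UDR and IA, the highest non-member of each group, and IDs singled out beyond these (the set of 7, the patterns over libraries, members that do not overlap, extremes) were chosen after their values were seen. Marker lists were fixed for named genes and could not be applied, since 0 IDs had a name.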

Additional observations from a re-analysis of the deposited data

Results flagged for a closer look

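A single value standing clear of the other 3 of its group was found in 3 of 60 groups of values looked at, and about 3 are due to arise by chance (1 in 20). In UDR 3, 42 members reached 1000 CPM, against 78 in the nearest UDR library. In IA 2 the number was 52, against 84 in the nearest IA library. ENSOARG00000019329 was at 11196 CPM in C 1, against 5688 in the nearest control. Over all members and groups, 27 of 404 groups of values had one, and chance gives 20.2. IA 2 was the library apart in 9 of them as the highest and in 6 as the lowest, and C 1 in 5 as the highest and in 1 as the lowest. Values without UDR 3 or IA 2 stand beside the group results.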

How the results depend on the processing

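By edgeR the count of members called stayed at 0 in the 6 comparisons under RLE scaling, without the filter, with each library left out, without IA 2 and UDR 3, with lane terms and with the replicate number as a block. It was also 0 within a shared lane in the 3 comparisons that have one. Other tools moved it. DESeq2 called 4 members between UDR and UD (3.96% against 1.11% of all genes). Limma-voom with sample quality weights called 8 between UDR and UD (7.92% against 11.6%) and 8 between IA and UD (7.92% against 10.2%). Between UD and C it called 18 (17.8% against 23.8%). The median member log2 fold change of UD against C was -0.41 in the fit with a lane term and -0.43 in lane 1 alone. Leaving out each library in turn moved the medians to between -0.04 and 0.33 for UDR against UD, -0.01 and 0.31 for IA against UD and -0.19 and 0.25 for IA against UDR, so the sign turned in each of these 3. For UD against C they lay between -0.35 and -0.02, for UDR against C between -0.22 and 0.13, and for IA against C between -0.14 and 0.17. ENSOARG00000016440 and ENSOARG00000001508 kept their signs in UDR against UD and in IA against UDR under all alternatives run. These are the comparisons for which they were picked by p, and the others were not followed for them. Asking for 1000 CPM in every control gave 55 members, and the other selection rules gave 90 to 110, of which the mean over all 16 libraries shared 90. The labels do not say whether the replicate numbers pair the animals. Correlations ran from -0.56 to 0.64 over 24 same-number pairs, and 10 of them were above 0.1. A library correlated best with its own number in 16 of 48 cases. With 4 libraries a group, these values do not decide whether the numbers pair the animals. With the replicate block the median member log2 fold change was 0.16 for UDR against UD, 0.11 for IA against UD and -0.05 for IA against UDR, where the sign turned, and 0 members were called. The cause of these moves was not tested. The summed shares moved by less than the spread between animals with the 37 left-out IDs taken off the totals, with a library left out and, for UDR, with first runs only.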
